A study of Mus musculus with 20 samples.

Results

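The 7 genes described here are Klk1, the mouse tissue kallikrein, and 6 related kallikreins: the Klk1 paralogues Klk1b5, Klk1b22 and Klk1b24, and the more distant family members Klk6, Klk8 and Klk10. They were taken by gene name from the 24062 genes counted in every library, and they were picked because Klk1 was lower in the pituitary libraries labelled KO. The values of that contrast are therefore a description and carry no test for these genes. The family list used for comparison holds 26 kallikrein genes, the 7 included.

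Poly(A) RNA of male C57BL/6N mice on chow was sequenced from 2 tissues, the pituitary gland and the inguinal fat pad, a white adipose depot under the skin of the groin (iWAT). The 4 groups were pituitary labelled KLF14 KO, pituitary labelled WT, iWAT labelled KLF14 KO and iWAT labelled WT, with 5 libraries each. In either tissue 4 labelled KO libraries have an age label of 21 weeks and 1 of 19 weeks, and 2 labelled WT libraries have one of 21 weeks, 2 of 19 weeks and 1 of 18 weeks. KLF14 is a zinc-finger transcription factor of the Krüppel-like family. The sources used here do not give which part of Klf14 was deleted, or whether in all cells. No label says in words that libraries of a group came from separate animals, so the p-values below speak only of the spread among libraries, which may be technical.

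Klf14 did not follow the labels. It averaged 31.8 ± 2.85 CPM (reads of a gene per mega-read counted in a library, scaled across all 20 libraries) in labelled KO pituitary and 15.8 ± 1.72 CPM in labelled WT pituitary (SD, n = 5 each), a log2 fold change of 1.0 (SE 0.0862, adjusted p = 7.64e-05). In iWAT it averaged 1.59 ± 0.809 CPM in labelled KO, against 0.937 ± 1.28 in labelled WT libraries. Directions below are therefore between labelled groups. Total counts were 13.6 to 17.6 M in the pituitary and 14.8 to 18.7 M in iWAT. The tissue labels held: the summed level of 8 pituitary hormone-cell genes was 98100 to 149000 CPM in the pituitary and at most 125 CPM in iWAT, and that of 7 adipocyte genes was 2.07 to 4.13 CPM in the pituitary and 8790 to 31000 CPM in iWAT.

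Kallikreins are secreted serine proteases made as inactive precursors. Tissue kallikrein cuts kininogens to release kinins, short peptides that act on the bradykinin receptors and widen vessels, and other kallikreins act on protease-activated receptors, growth factor precursors and matrix or cell adhesion proteins. In the rat pituitary, tissue kallikrein is known as a product of prolactin cells, induced by oestrogen and lowered by dopamine. The mouse carries an expanded block of Klk1b genes beside Klk1, several of them known from the submandibular gland as subunits or binding proteins of growth factors.

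All 26 genes lie on the plus strand of chromosome 7 (mm10), within 539 kb between positions 43690418 and 44229617. Klk1 is the last of the row, at chr7:44225437-44229617, with 5 exons and 876 counted exon bases. Klk1b5 lies next to it at chr7:44216475-44220703, then Klk1b24 at chr7:44188263-44192451 and Klk1b22 at chr7:44112683-44116876. Klk6 (chr7:43824544-43832027), Klk8 (chr7:43797577-43803822) and Klk10 (chr7:43781054-43785410) belong to the block at the other end.

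The paralogues are close enough in sequence for reads to be shared, which is why exon 4 of each is shown. Exon 4 is coding, is 137 bases long in each of the 4 genes and lies in Klk1 at chr7:44228911-44229047, in Klk1b5 at chr7:44219991-44220127, in Klk1b22 at chr7:44116209-44116345 and in Klk1b24 at chr7:44191744-44191880 (GRCm38, plus strand, GENCODE M21). Capitals mark bases that differ from Klk1.
Klk1: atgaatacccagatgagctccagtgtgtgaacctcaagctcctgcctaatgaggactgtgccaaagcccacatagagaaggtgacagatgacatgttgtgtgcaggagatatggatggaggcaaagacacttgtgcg
Klk1b5: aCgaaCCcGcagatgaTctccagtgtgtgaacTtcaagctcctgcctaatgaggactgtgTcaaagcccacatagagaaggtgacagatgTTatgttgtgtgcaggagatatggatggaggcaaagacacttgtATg
Klk1b22: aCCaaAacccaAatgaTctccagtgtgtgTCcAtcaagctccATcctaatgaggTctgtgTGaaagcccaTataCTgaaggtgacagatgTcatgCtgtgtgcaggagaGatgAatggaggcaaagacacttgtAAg
Klk1b24: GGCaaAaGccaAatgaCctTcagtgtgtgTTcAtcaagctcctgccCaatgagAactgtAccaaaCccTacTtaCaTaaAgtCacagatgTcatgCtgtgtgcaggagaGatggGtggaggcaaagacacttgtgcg

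Klk1b5 differed from Klk1 at 11 of these positions, Klk1b22 at 22 and Klk1b24 at 25. The longest run identical to Klk1 was 42 bases in Klk1b5, 20 in Klk1b22 and 22 in Klk1b24, all shorter than the 100-nucleotide reads. Over the whole counted transcript, Klk1b5 was 95.1% identical to Klk1, Klk1b24 86.0% and Klk1b22 85.6%, within a range of 82.0% to 95.1% for the 13 Klk1b genes. Klk6, Klk8 and Klk10 were 63.8% to 65.5% identical over the bases that aligned.

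Of the 777 windows of 100 bases along the Klk1 transcript, 52 (6.7%) occurred without change in Klk1b5 or Klk1b11, and 278 (35.8%) lay within 2 mismatches of another kallikrein, 227 of them of Klk1b5. For Klk1b5, 68 of 762 windows (8.9%) were found unchanged in Klk1 or Klk1b4, and for Klk1b24, 20 of 748 (2.7%) in Klk1b21 or Klk1b27. Klk1b22, Klk6 and Klk10 had no such window. Reads from the shared windows were counted at their primary alignment, so low values of Klk1b5 and Klk1b24 may hold reads of neighbours and the reverse. Klk8 has another kind of overlap: its first exon shares the 382 bases of chr7:43797577-43797958, 28.9% of its counted bases, with the antisense gene 2310002F09Rik in GENCODE M21, although these genes share no base in the annotation used for counting. The counts were made without a strand option, so antisense reads there cannot be told from Klk8 reads.

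In the pituitary, Klk1 was lower in the libraries labelled KO. Its counts were 32, 61, 21, 27 and 27 reads in labelled KO libraries 31, 32, 35, 50 and 66, against 70, 86, 80, 85 and 85 reads in labelled WT libraries 33, 34, 48, 49 and 56. On the CPM scale these were 1.70, 3.51, 1.31, 1.94 and 1.68 in labelled KO, against 4.10, 5.82, 4.68, 5.84 and 5.20 in labelled WT libraries. The groups did not overlap. Library 32 was the highest of the labelled KO group and library 33 the lowest of the labelled WT group.

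Klk1 averaged 2.03 ± 0.858 CPM in labelled KO, against 5.13 ± 0.748 in labelled WT pituitary (SD, n = 5 each). The log2 fold change was -1.32 (SE 0.223), which is 0.399 of the labelled WT level. Of 16389 genes tested in this contrast, 90 (0.549%) passed an adjusted p of 0.05, 68 of them higher in labelled KO (0.415%) and 22 lower (0.134%), and the groups did not overlap for 185 genes lower (1.13%) and 282 higher (1.72%) in labelled KO. An unadjusted p under 0.05 was found for 1792 genes (10.9%), and DESeq2 called 288 (1.76%). Since this contrast chose Klk1, nothing is read from its place among them. The coefficient of variation was 42.3% in labelled KO and 14.6% in labelled WT libraries, where counting error alone gives 17.3% and 11.1%. In bulk tissue, fewer cells of a type and less RNA per cell cannot be told apart.

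Age differed between the labelled groups. The log2 fold change of Klk1, a description here too, was -1.31 (SE 0.256) with age in the fit and -1.26 (SE 0.353) among libraries of 21 weeks. The 4 labelled KO libraries of 21 weeks held 1.31 to 3.51 CPM, against 4.10 and 5.82 CPM in the 2 labelled WT libraries. At 19 weeks the only labelled KO library held 1.94 CPM, against 4.68 and 5.84 CPM in labelled WT.

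**Figure D1:**
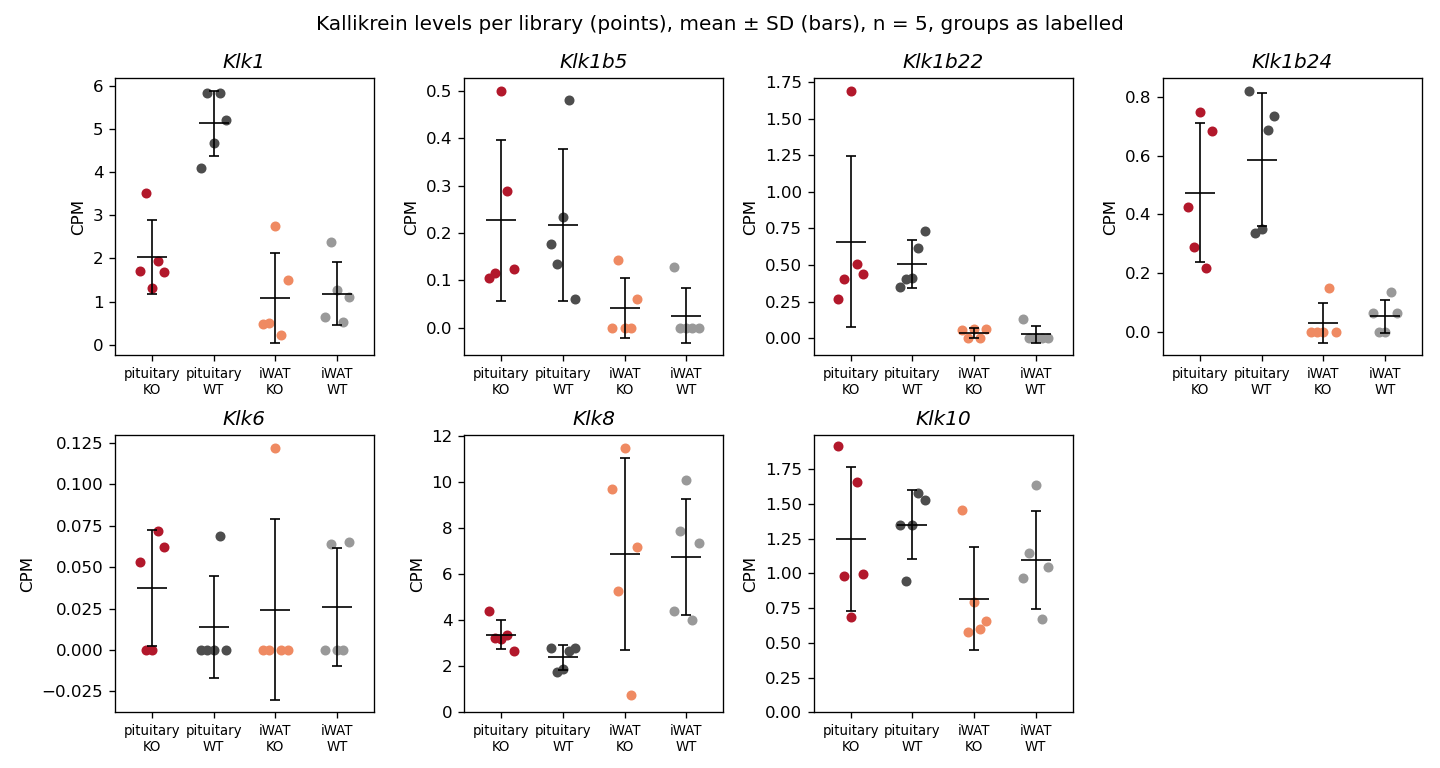
Level of each of the 7 kallikreins in CPM (y axes, each with its own scale) in the 4 groups as labelled (x axes). Points are libraries and bars are the mean and SD of 5 libraries. Klk1 is the gene whose pituitary groups do not overlap, at 1.31 to 3.51 CPM in labelled KO, against 4.10 to 5.84 CPM in labelled WT.

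The labelled groups overlapped for the Klk1b paralogues of the pituitary, and the 3 chosen ones were rare. Klk1b5, the paralogue nearest to Klk1 in place and sequence, had 2, 2, 8, 4 and 2 reads in labelled KO pituitary, against 3, 2, 4, 7 and 1 reads in labelled WT. Klk1b22, an epidermal growth factor binding protein, had 5, 7, 27, 7 and 7 reads in labelled KO, against 6, 6, 7, 9 and 12 reads in labelled WT. Library 35 of the labelled KO group stood above all others for both genes, and the groups overlapped for both.

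Klk1b24 had 8, 5, 12, 3 and 11 reads in labelled KO, against 14, 5, 6, 10 and 12 reads in labelled WT, with a log2 fold change of -0.30 (SE 0.384) and groups that overlapped. Klk1b5 and Klk1b22 did not pass the filter on low counts and have no fitted fold change. A library's 3-read floor lay between 0.16 and 0.226 CPM, and the group means of these 3 genes were 0.217 to 0.659 CPM in the pituitary. Differences between the labelled groups below a few reads were not detectable at this depth.

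Of the 19 kallikreins outside the 7, 6 were expressed enough to test in the pituitary and none passed (edgeR, 0 also at an unadjusted p under 0.05 and 0 with DESeq2). The shares of all genes were 0.549% with edgeR, 10.9% at an unadjusted p under 0.05 and 1.76% with DESeq2. The log2 fold changes of these 6 ran from 0.07 to 0.19 with a median of 0.12, against a median of 0.004 over all genes. Klk1b16, known as gamma-renin, averaged 6.96 ± 1.54 CPM in labelled KO, against 6.24 ± 1.38 in labelled WT pituitary (log2 fold change 0.16, SE 0.176, adjusted p = 0.806). Klk1b26, a second epidermal growth factor binding protein that the files also list as Egfbp2 over the same bases, averaged 6.38 ± 2.33 CPM in labelled KO, against 5.94 ± 1.10 in labelled WT (log2 fold change 0.10, adjusted p = 0.909). Klk1b27 averaged 4.86 ± 2.38 CPM in labelled KO, against 4.39 ± 0.971 in labelled WT (log2 fold change 0.14, adjusted p = 0.896).

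Klk1 can also be described relative to the 13 Klk1b genes of the same library. Klk1 made up 11, 15, 3.77, 7.87 and 9.12% of the reads of Klk1 and Klk1b together in labelled KO libraries 31, 32, 35, 50 and 66, against 22.7, 21.7, 16.8, 23.2 and 20.1% in labelled WT libraries 33, 34, 48, 49 and 56. The share rests on the same Klk1 reads that chose the gene, so that its groups do not overlap adds nothing to the counts and is no check on reads passing between paralogues. The closest pair was library 32 of the labelled KO group (exact 95% binomial interval 11.7 to 18.8%) and library 48 of the labelled WT group (13.5 to 20.4%), whose intervals overlapped; the intervals cover counting error only.

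The mean share was 9.35 ± 4.12% in labelled KO and 20.9 ± 2.58% in labelled WT pituitary (SD, n = 5 each). The summed Klk1b level was 13.8 to 33.5 CPM (mean 21.4) in labelled KO and 14 to 23.2 CPM (mean 19.6) in labelled WT libraries, and these ranges overlapped. Library 35, with the lowest Klk1, had the highest Klk1b sum at 536 reads. When Klk1 and Klk1b counts were added up as 1 gene, the log2 fold change was -0.09 (SE 0.204). Klk1 was the smaller part of that sum, and Klk1b had 1726 reads in labelled KO, against 1566 in labelled WT pituitary. Whether reads passed between the paralogues was not tested.

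**Figure D2:**
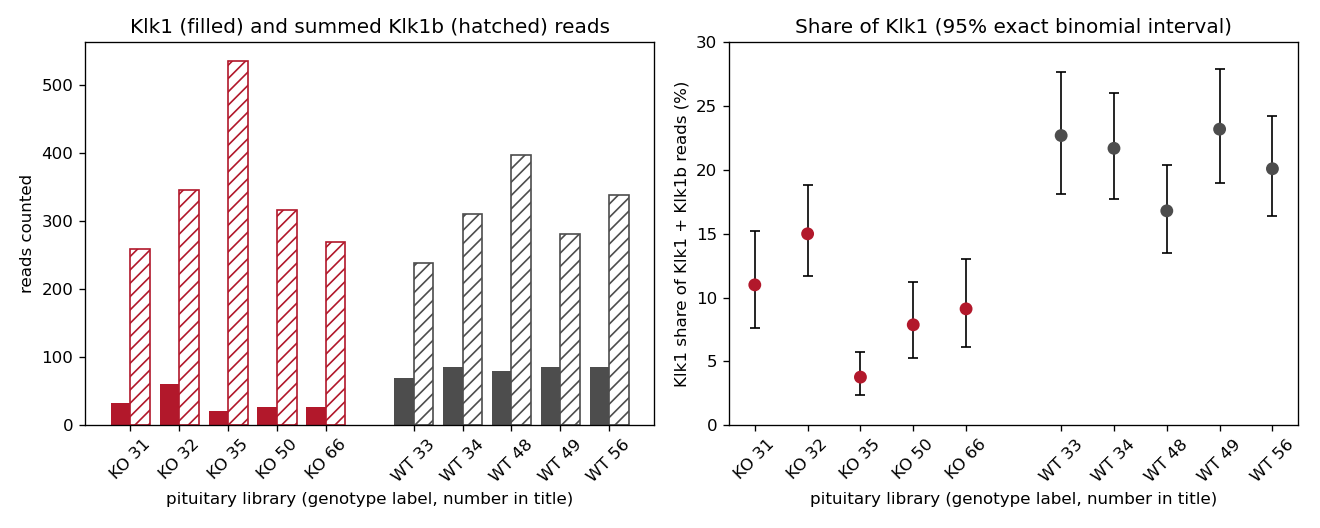
Left, reads of Klk1 (filled) and of 13 Klk1b genes summed (hatched) in each pituitary library (x axis, genotype label and number in the title); right, the share of Klk1 in their sum in %, with exact 95% binomial intervals. Labelled KO libraries lie at 3.77 to 15% and labelled WT libraries at 16.8 to 23.2%, while the Klk1b reads of the groups overlap.

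The distant relatives had other patterns in the pituitary. Klk8, known as neuropsin and a protease of the nervous system and epidermis, had 4.42, 3.22, 3.19, 3.38 and 2.68 CPM in labelled KO libraries, against 2.81, 1.76, 1.87, 2.68 and 2.82 CPM in labelled WT. The other 4 labelled KO libraries lay above all labelled WT libraries, and library 66 lay among them. The log2 fold change was 0.50 (SE 0.19), opposite in sign to that of Klk1. The level of 2310002F09Rik, whose exon overlaps Klk8 on the other strand, had a log2 fold change of -0.08 (SE 0.178).

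Klk10, first described as a protease of normal breast epithelium, had 1.92, 0.979, 0.688, 1.66 and 0.996 CPM in labelled KO, against 1.35, 0.947, 1.35, 1.58 and 1.53 CPM in labelled WT pituitary. The labelled KO libraries held both the highest and the lowest value, and the log2 fold change was -0.11 (SE 0.276). Klk6, a protease known from oligodendrocytes and myelin breakdown, had 0 or 1 read in every pituitary library, 3 in all in labelled KO and 1 in all in labelled WT. A level of Klk6 above the floor was therefore not detectable in the pituitary.

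Per kb of counted exon, which allows genes to be compared, the order of the 7 differed between the labelled groups. In labelled KO pituitary, Klk8 (2.56 ± 0.483 CPM per kb) and Klk1 (2.32 ± 0.98) stood together at the top, within their spread. Below them came Klk10 (0.921 ± 0.381), Klk1b22 (0.825 ± 0.728), Klk1b24 (0.558 ± 0.28), Klk1b5 (0.263 ± 0.198) and Klk6 (0.0266), where neighbours overlapped except Klk1b5 and Klk6. In labelled WT pituitary, Klk1 led with 5.85 ± 0.854 CPM per kb, above Klk8 (1.81 ± 0.398) by more than their spread, and Klk10 (0.997 ± 0.184), Klk1b24 (0.692 ± 0.266), Klk1b22 (0.631 ± 0.206) and Klk1b5 (0.253 ± 0.186) followed. Across the family, Klk1b26, at 7.31 ± 2.67 CPM per kb in labelled KO and 6.80 ± 1.26 in labelled WT pituitary, had the highest group mean in both.

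**Figure D3:**
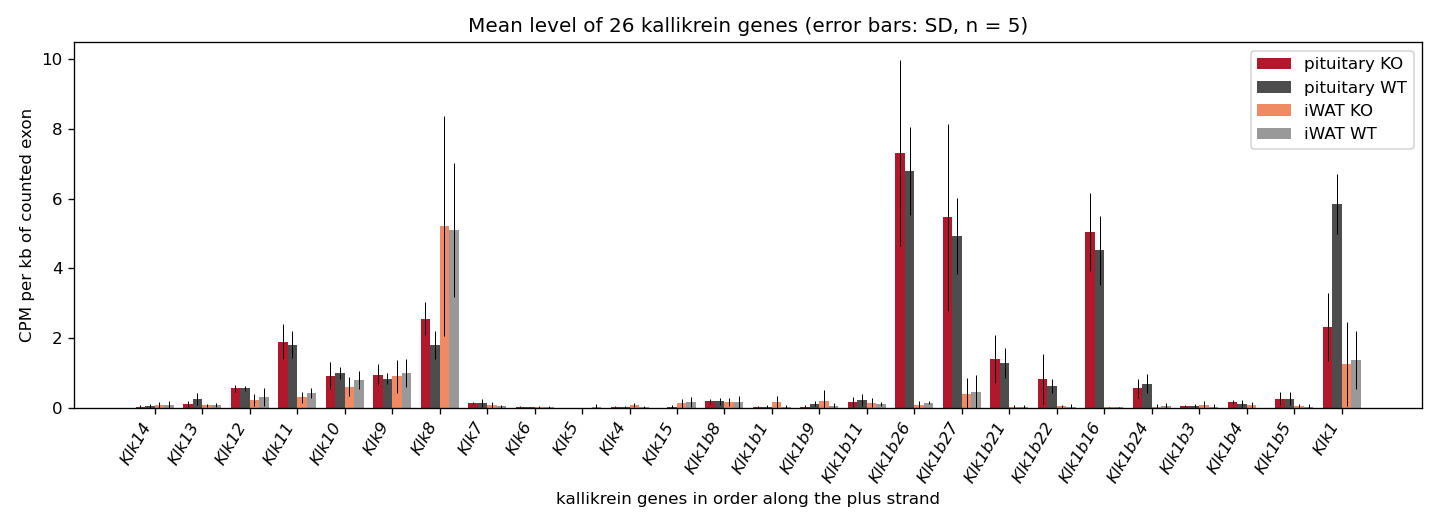
Mean level in CPM per kb of counted exon (y axis; error bars SD, n = 5) of the 26 kallikrein genes in their order along chromosome 7 (x axis) in the 4 groups as labelled. Klk1 at the right end is the gene with the widest gap between the pituitary groups, 2.32 against 5.85, while Klk8 is highest in iWAT at 5.21 in labelled KO and 5.11 in labelled WT.

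In iWAT the difference of Klk1 was not seen, at lower counts. Klk1 had 9, 7, 45, 3 and 25 reads in labelled KO iWAT, against 10, 37, 21, 8 and 17 reads in labelled WT. The groups overlapped throughout, and libraries 35 of the labelled KO and 34 of the labelled WT group were the highest. Klk1 averaged 1.09 ± 1.05 CPM in labelled KO, against 1.19 ± 0.729 in labelled WT iWAT (SD, n = 5 each), with a log2 fold change of -0.13 (SE 0.654, 95% interval -1.41 to 1.15, adjusted p = 1). This interval holds 0 and also the pituitary value of -1.32, and whether the tissues differ in the Klk1 effect was not tested.

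Klk8 was the most abundant of the 7 in iWAT and varied widely there. It had 9.72, 5.26, 11.5, 0.753 and 7.17 CPM in labelled KO libraries 31, 32, 35, 50 and 66, against 4.4, 7.88, 10.1, 4.03 and 7.34 CPM in labelled WT. The means were 6.88 ± 4.18 CPM in labelled KO, against 6.75 ± 2.54 in labelled WT iWAT, with a log2 fold change of 0.01 (SE 0.545, 95% interval -1.06 to 1.08, adjusted p = 1). Klk10 averaged 0.818 ± 0.368 CPM in labelled KO, against 1.10 ± 0.351 in labelled WT iWAT, with a log2 fold change of -0.44 (SE 0.33, adjusted p = 1). None of the 16105 genes tested in iWAT passed (0%); 89 (0.553%) had an unadjusted p under 0.05, and DESeq2 called 0 (0%). Klk1b5, Klk1b22, Klk1b24 and Klk6 had 0 to 2 reads in every iWAT library and were not tested.

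Markers of other cells varied between the iWAT libraries too. The summed level of 10 B and T cell genes, which mark the lymph node embedded in this depot, was 16.8 CPM in labelled KO library 50 and 591 to 1270 CPM in the other labelled KO libraries, against 331 to 1240 CPM in labelled WT. Library 50 was also the lowest of the 10 iWAT libraries for Klk8 and for Klk1. It stood apart in other sums too. It had the highest of 7 adipocyte genes (31000 CPM) and of 11 neutrophil and blood genes (5270 CPM). Its sum of 9 skeletal muscle genes was the lowest (21.5 CPM), but close to labelled WT libraries 49 (23 CPM) and 56 (25.9 CPM). The summed level of 10 mammary and simple epithelium genes was 132 CPM in labelled KO library 66 and 3.94 to 16.1 CPM in the other labelled KO libraries, against 294 CPM in library 34 and 5.04 to 47.6 CPM in the other labelled WT libraries. Libraries 66 and 34 came next in Klk1 after library 35, which had the highest Klk1 of iWAT and an epithelium sum of 6.73 CPM. Their part in the Klk1 and Klk8 values was not tested.

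**Figure D4:**
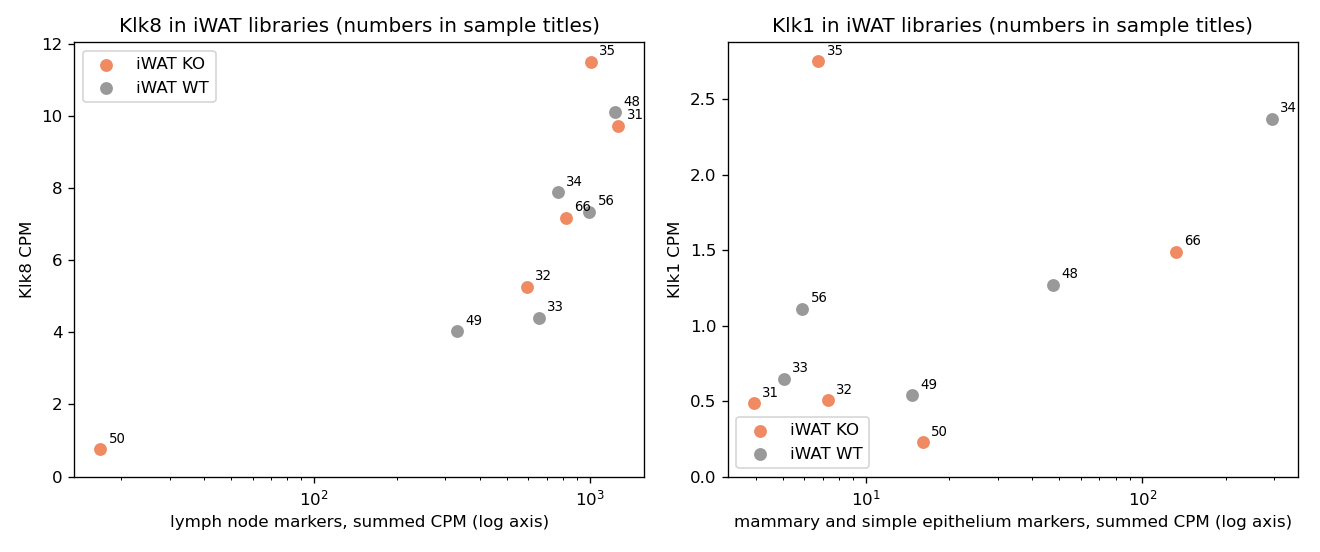
Klk8 in CPM against the summed CPM of 10 B and T cell genes (left) and Klk1 against the summed CPM of 10 mammary and simple epithelium genes (right) in the 10 iWAT libraries; x axes are logarithmic, each point is a library with the number from its title. Labelled KO library 50 has the lowest Klk8, 0.753 CPM, and the lowest B and T cell sum, 16.8 CPM.

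Between tissues, the labelled WT level of Klk1 was 4.33 times as high in the pituitary as in iWAT (log2 fold change 2.11, SE 0.335), with all 5 pituitary libraries above all 5 iWAT libraries. The pituitary libraries of both labelled genotypes entered the choice of Klk1, so its tissue values are given with no test. Klk8 was lower in the pituitary (log2 fold change -1.48, SE 0.282, adjusted p = 0.000484), also without overlap. Klk10 did not pass (log2 fold change 0.31, SE 0.251, adjusted p = 0.268). In this comparison, 79.1% of the 17023 genes tested passed in one direction or the other, 40.2% higher and 38.9% lower in the pituitary, so passing is common between these tissues. Groups did not overlap for 35.5% of genes with the pituitary higher and for 34% with it lower.

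In labelled KO libraries Klk1 had a log2 fold change of 0.88 (SE 0.564) between the tissues, with groups that overlapped. Klk8 had one of -1.02 (SE 0.504, adjusted p = 0.0873) and Klk10 one of 0.59 (SE 0.358, adjusted p = 0.157), and neither passed, where 75.1% of 16905 genes passed (37.3% higher and 37.8% lower in the pituitary). The difference between the labelled genotypes was not tested. Leaving out a number removed its pituitary and its iWAT library together. Without number 35 the log2 fold change of Klk1 was 1.68. In the labelled KO groups, that number has the highest Klk1 of iWAT (2.75 CPM) and the lowest of the pituitary (1.31 CPM). Without number 50 the value of Klk8 was -1.29 (edgeR adjusted p = 0.00142).

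The rare Klk1b members were read almost only in the pituitary. Klk1b22 had 53 reads over the 5 labelled KO and 40 over the 5 labelled WT pituitary libraries, and 3 and 2 over the labelled KO and labelled WT iWAT libraries. Klk1b24 had 39 and 47 in labelled KO and labelled WT pituitary and 2 and 4 in labelled KO and labelled WT iWAT, and Klk1b5 had 18 and 17 and then 3 and 2. Among the other kallikreins, Klk1b16 went furthest in this direction, with 566 reads in labelled KO and 497 in labelled WT pituitary and 1 read in each iWAT group. Of the 5 kallikreins outside the 7 that were tested, 4 (Klk1b16, Klk1b26, Klk1b27 and Klk11) passed as higher in the pituitary in both labelled genotypes. Among all genes, 37.3% passed as higher in labelled KO and 40.2% in labelled WT libraries. None of these 4 kallikreins passed the filter on low counts among the iWAT libraries alone. They entered the comparison through their pituitary reads, so their direction was largely set by the filter. The count of 4 is a description for that reason. With so few Klk1b reads in iWAT, Klk1 made up a larger share of the Klk1 and Klk1b reads there. This share was 42.2 ± 12.3% in labelled KO and 55.6 ± 14.7% in labelled WT libraries.

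**Figure D5:**
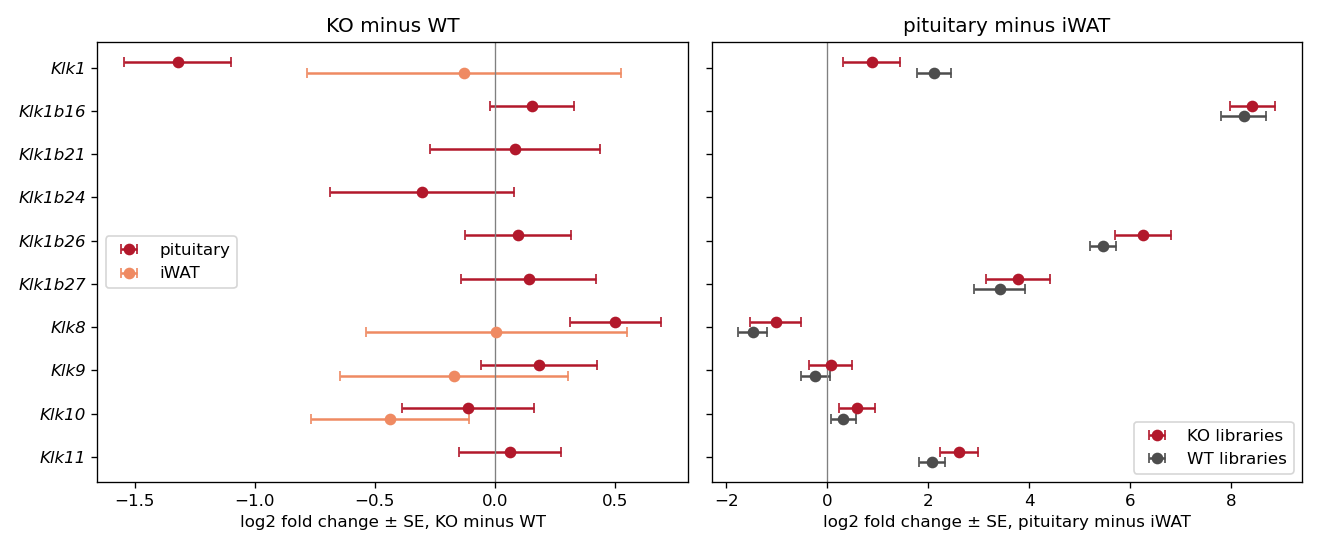
Log2 fold changes with SE of the kallikreins that passed the filter on low counts: left, labelled KO minus labelled WT in the pituitary and in iWAT; right, pituitary minus iWAT in labelled KO and in labelled WT libraries. In the left panel Klk1 of the pituitary lies at -1.32 and the other pituitary values lie between -0.30 and 0.50; in the right panel Klk8 is the gene below 0 in both labelled genotypes, and the value of Klk1b16, with 1 read per iWAT group, depends on the prior count of the fit.

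The partners of tissue kallikrein and the cells known to make it were looked at through 5 lists of genes, of which no member passed in the pituitary with edgeR, against 0.549% of all genes, and none in iWAT, where no gene passed. Of 17 genes of the kinin system, 11 were tested, with a median log2 fold change of 0.07, and 3 had an unadjusted p under 0.05, which 10.9% of all genes had. The precursor Kng1 was near the floor, at 0.112 ± 0.107 CPM in labelled KO, against 0.0726 ± 0.0637 in labelled WT pituitary, as was Kng2. The kinin receptor Bdkrb2 averaged 17.3 ± 1.57 CPM in labelled KO, against 14.8 ± 1.53 in labelled WT (log2 fold change 0.22, SE 0.0896, adjusted p = 0.361). Of the kinin-degrading peptidases, Ace averaged 27.7 ± 5.4 CPM in labelled KO, against 24 ± 2.38 in labelled WT (adjusted p = 0.567), and Ece1 averaged 393 ± 36.5 CPM in labelled KO, against 389 ± 20.4 in labelled WT (adjusted p = 0.943).

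Of 14 protease inhibitors, 9 were tested, with a median log2 fold change of 0.12 and 2 unadjusted p under 0.05 (10.9% of all genes). Spint2, an inhibitor of membrane-bound serine proteases, averaged 232 ± 23.6 CPM in labelled KO, against 213 ± 21.7 in labelled WT pituitary (adjusted p = 0.625). Serpina3n, a secreted serpin, averaged 4.48 ± 5.67 CPM in labelled KO, against 1.02 ± 0.569 in labelled WT (log2 fold change 2.09, SE 0.795, adjusted p = 0.365). With age in the fit Serpina3n passed, with a log2 fold change of 3.07 (adjusted p = 0.0032).

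All 13 receptors and substrates of kallikreins were tested, with a median log2 fold change of 0.07 and 4 unadjusted p under 0.05 (10.9% of all genes). The adhesion protein L1cam, a substrate of Klk8, averaged 4.41 ± 0.681 CPM in labelled KO, against 6.35 ± 0.938 in labelled WT pituitary (log2 fold change -0.53, SE 0.142, adjusted p = 0.128; DESeq2 adjusted p = 0.0482). The protease-activated receptor F2rl1 averaged 8.49 ± 1.01 CPM in labelled KO, against 10.6 ± 1.19 in labelled WT (adjusted p = 0.274). In the list of prolactin cells, oestrogen and dopamine, 9 of 11 genes were tested, with a median of 0.03 and 3 unadjusted p under 0.05 (10.9% of all genes). Prolactin (Prl) itself averaged 21600 ± 3470 CPM in labelled KO, against 21800 ± 2900 in labelled WT (adjusted p = 0.977), the oestrogen receptor Esr1 192 ± 11.1 CPM in labelled KO, against 214 ± 6.99 in labelled WT (adjusted p = 0.165), and the dopamine receptor Drd2 54.3 ± 3.02 CPM in labelled KO, against 51.1 ± 5.85 in labelled WT (adjusted p = 0.723).

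The 7 melanotroph genes, which mark the intermediate lobe, had a median log2 fold change of 0.23 with 2 unadjusted p under 0.05 (10.9% of all genes). Their summed level was 8360 to 14400 CPM in labelled KO, against 5080 to 9710 CPM in labelled WT pituitary, with overlap. Oacyl, the member with the smallest p, averaged 250 ± 36.9 CPM in labelled KO, against 163 ± 33.3 in labelled WT (log2 fold change 0.61, SE 0.153, adjusted p = 0.145; DESeq2 adjusted p = 0.00116). The submandibular gland makes much Klk1 and Klk1b, so 13 salivary markers were read too. Their sum was 97.9 to 135 CPM in labelled KO, against 103 to 137 CPM in labelled WT pituitary, and was mostly Egf. Smr2 and Smr3a were at 0 in all 10 libraries, Esp15 in those labelled KO and Prol1 in those labelled WT. The other salivary markers had reads in both labelled groups. Muc19, a gel-forming mucin named after its value was seen, averaged 1.67 ± 0.442 CPM in labelled KO, against 3.62 ± 0.86 in labelled WT (log2 fold change -1.13, SE 0.226, edgeR adjusted p = 0.0402). It was the only 1 of 5 tested salivary markers to pass, where 0.549% of all genes passed. Leaving out 1 library lost that call in 6 of 10 cases (labelled KO 31, 32 and 35 and labelled WT 48, 49 and 56), and it was also lost with age in the fit (adjusted p = 0.158), among libraries of 21 weeks (log2 fold change -0.73, adjusted p = 0.739) and in 1 fit over all 20 libraries (adjusted p = 1); the adjusted p over all alternatives ran from 0.00145 to 1. The part of melanotroph and salivary genes in the Klk1 values was not tested.

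Within 500 kb the files list 51 other genes, 24 of them kallikreins. Of the 23 further genes (Egfbp2 among them) that were tested in the pituitary none passed (edgeR), where 0.549% of all genes passed. Their log2 fold changes ran from -0.43 to 0.30, with a median of -0.04.

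The genes whose log2 CPM tracked that of Klk1 most closely over the 10 pituitary libraries were Htr5b, a serotonin receptor, with Pearson r = 0.941, then Ncbp1 (0.932), Lyplal1 (0.921), Serpina7 (0.909) and Sytl1 (0.907). The most opposed were Ncam1 (-0.975), Nrxn3 (-0.972), Ankmy2 (-0.926), Ablim3 (-0.921) and Exoc6b (-0.916). These r describe 10 libraries that fall into the 2 labelled groups and were picked from all genes tested. After the group means were removed they were 0.763, 0.686, 0.807, 0.838 and 0.428 for the first 5 and -0.872, -0.862, -0.652, -0.532 and -0.643 for the last 5. Htr5b averaged 0.307 ± 0.228 CPM in labelled KO, against 0.938 ± 0.104 in labelled WT, and Ncam1, a neural adhesion protein, 335 ± 9.34 CPM in labelled KO, against 304 ± 3.19 in labelled WT. The abundant paralogues were not among them: r with Klk1 was -0.17 for Klk1b16, -0.14 for Klk1b26 and -0.13 for Klk1b27.

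The stretches before the start sites of Klk1 and its nearest neighbour Klk1b5 are shown because their transcripts are the most alike and their levels in labelled WT pituitary far apart, at 5.85 CPM per kb for Klk1 and 0.253 for Klk1b5. The windows hold the 250 bases before the RefSeq start, at chr7:44225110-44225359 for Klk1 and chr7:44216224-44216473 for Klk1b5 (GRCm38.p6, plus strand). Capitals mark CCACCC or its reverse complement GGGTGG, the core of the CACCC box that Krüppel-like factors are known to bind.
Klk1: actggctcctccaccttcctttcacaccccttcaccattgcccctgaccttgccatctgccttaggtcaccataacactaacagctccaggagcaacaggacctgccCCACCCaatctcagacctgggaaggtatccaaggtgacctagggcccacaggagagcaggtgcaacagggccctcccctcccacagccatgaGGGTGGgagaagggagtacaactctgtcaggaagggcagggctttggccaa
Klk1b5: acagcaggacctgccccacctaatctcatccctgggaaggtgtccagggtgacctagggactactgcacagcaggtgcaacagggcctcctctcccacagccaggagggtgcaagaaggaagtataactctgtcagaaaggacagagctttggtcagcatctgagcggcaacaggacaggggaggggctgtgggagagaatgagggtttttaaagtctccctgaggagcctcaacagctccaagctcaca

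The Klk1 window held 2 matches and the Klk1b5 window 0, and neither held GGGCGG or CCGCCC, the GC box. Of 32851 promoters of the same length, 28.1% held CCACCC on either strand and 32.7% held GGGCGG. Among the other members, 2 matches to CCACCC were found each for Klk1b22, Klk1b24 and Klk10, and 0 for Klk8 and Klk6. The RefSeq start of Klk1 lies 77 bases before its first counted base, and that of Klk1b5 lies 1 base before its own. The windows shown are therefore shifted against each other, and their numbers of matches do not compare like stretches. With 50 further bases past the start, the Klk1 and Klk1b5 windows were 85.4% identical over 206 aligned bases, within the 77.6 to 86.1% of the 13 Klk1b genes. A match is a description of letters and not a bound site.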

How the data were processed

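Per the labels' protocols, RNA was isolated with QIAzol and the RNeasy kit, and poly(A) libraries were read on an Illumina HiSeq instrument as 100-nucleotide single-end reads. Each deposited file lists raw counts of reads for every gene, whole numbers without normalization, per the file headers. They were made by featureCounts over mm10 exons from UCSC, with primary alignments only, reads counted for each gene they overlap, and no strand option. STAR 2.4.0 and featureCounts 1.4.4 are named, with builds mm10 and GRCm38, per the submitters' processing notes.

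Using edgeR 4.0.16 (R 4.3.3), counts were tested with TMM factors after filterByExpr, by a quasi-likelihood F test with robust dispersion and p-values adjusted by Benjamini-Hochberg over all genes (threshold 0.05), each comparison fitted on its own 10 libraries without covariates. The SE is the log2 fold change over the square root of F. CPM in the text were TMM-scaled over all 20 libraries. DESeq2 1.42.0 was an alternative. The fits were tested on simulated data. At these depths 1 read is 0.0532 to 0.0753 CPM. Within a group, the smallest reduced chi-square between 2 libraries was 4.51, so none was merged.

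Named genes are the 7 members, Klf14, the 5 genes with the highest and the 5 with the lowest r with Klk1, list members that passed, up to 4 abundant members of each list and neighbours of Klk1; Kng1, Bdkrb2, Serpina3n, L1cam, F2rl1, Drd2, Oacyl, Muc19 and the rarer kallikreins were named after their values were seen. The members and lists were chosen with earlier results of these data known. Alternatives were RLE scaling, other filters on low counts, DESeq2, age as a covariate, the number in the title as a block, and summed paralogue counts. Each library was also left out in turn, and between tissues each number with its libraries of both tissues. Sequences come from GENCODE M21 and RefSeq (7 of 7 members matched); transcripts were cut into 100-base windows and compared with 2 mismatches allowed. Protein sequences were not used here.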

Additional observations from a re-analysis of the deposited data

Results flagged for a closer look

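Some libraries stood apart from the other 4 of their group for 1 of the 7 kallikreins, by Dixon's test at 95%. It flags about 1 in 20 groups by chance where values are spread normally. That rate does not hold where 4 libraries are at 0, since any read in the remaining library is then flagged. In the pituitary, labelled KO library 32 had the highest Klk1 of its group, 3.51 CPM (61 reads), where the next library had 1.94 CPM. Labelled KO library 35 had 1.69 CPM of Klk1b22 (27 reads), where the next had 0.504 CPM, and this library also had the most Klk1b reads in all. In iWAT, labelled KO library 31 had 1.46 CPM of Klk10 (27 reads), where the next had 0.796 CPM. The other values rest on 1 or 2 reads in groups whose remaining libraries were at 0: Klk1b24 in labelled KO iWAT library 50 (0.151 CPM), Klk6 in labelled KO iWAT library 35 (0.122 CPM), Klk1b5 and Klk1b22 in labelled WT iWAT library 33 (0.129 CPM each) and Klk6 in labelled WT pituitary library 49 (0.0687 CPM).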

How the results depend on the processing

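Over 17 results and 233 alternative values, 215 stayed within the bounds set: the same direction and side of the threshold where tested, within 1 SD where not, and within 1.5 times for a count. The Klk1 difference in the pituitary lay between -1.62 and -1.2 with 1 library left out, and was -0.0866 with Klk1 and Klk1b counts summed; the sum is mostly Klk1b. Klk10 there turned sign with age in the fit (0.08) and reached 0.04 with 1 library left out. The count of pathway genes and further kallikreins passing in the pituitary was 0, 2 with DESeq2 (Oacyl, L1cam) and 1 with age (Serpina3n). In iWAT the near-zero values turned sign. Klk1 ranged from -0.81 to 0.29 with 1 library left out, being 0.07 and 0.05 without labelled KO 31 and 32, 0.12 without labelled KO 50 and 0.29 without labelled WT 34, and was 0.0777 with paralogues summed. Klk8 ranged from -0.26 to 0.30, being -0.14, -0.26 and -0.01 without labelled KO 31, 35 and 66 and -0.12 and -0.13 without labelled WT 33 and 49, and was -0.36 with age. No adjusted p there was under 0.998. Between tissues, 11 kallikreins passed without a filter in labelled KO and 11 in labelled WT libraries, against 4 and 6 with it. Leaving out 1 number gave 4 to 5 in labelled KO and 6 to 7 in labelled WT. All counts between tissues were taken with Klk1 in the family list, though its tissue values carry no test. Klk1 is 1 of the 6 in labelled WT. With the filter, 75.1% of all genes passed in labelled KO and 79.1% in labelled WT libraries. No share of all genes is given here for the other fits, so nothing is read from their counts. This holds for the counts with the number as a block too. In labelled KO, Klk1 ranged from 0.42 to 1.68 and Klk8 from -1.29 to -0.74 with 1 number left out, Klk1 being 1.68 without 35, and Klk8 passing without 50. The cause of these changes was not tested. The deviations of 14854 genes did not settle whether the numbers in the titles pair the tissues. The r within a number was -0.072 to 0.117 over 10 pairs, and over 0.1 in 1. Of the 10 pituitary libraries, 6 matched the iWAT library of their own number best among the 5 of the same genotype label. With the number as a replicate block, Klk1 was 1.16 in labelled KO and 2.23 in labelled WT libraries, and 6 and 9 kallikreins passed. Depth limits Klk1b5, Klk1b22, Klk1b24 and Klk6, which are a few reads per library.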

Other observations

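Several genes of the kinin and inhibitor lists that the liver is known to secrete were read in iWAT at levels that varied widely between libraries. Kng1, a kininogen, averaged 18.8 ± 15.7 CPM in labelled KO, against 5.17 ± 5.37 in labelled WT iWAT (SD, n = 5 each), and the coagulation factor gene F12 averaged 5.55 ± 4.34 CPM in labelled KO, against 2.2 ± 1.82 in labelled WT. Klkb1, plasma kallikrein, averaged 3.14 ± 1.97 CPM in labelled KO, against 1.61 ± 1.13 in labelled WT. The inhibitor Pzp averaged 81 ± 76.6 CPM in labelled KO, against 22.5 ± 22.3 in labelled WT, and Serpina3k 122 ± 90 CPM in labelled KO, against 41.6 ± 42.7 in labelled WT. None of these differences passed (edgeR, adjusted p = 1 for each), and these genes were chosen after their values were seen. All 5 lie on the side of labelled KO. Of 16 kinin genes tested in iWAT 12 had a positive and 4 a negative log2 fold change (median 0.22, against 0 over all genes). The inhibitor list did not lean to that side: of 10 inhibitors 5 had a positive and 5 a negative one. Spint1 was among the negative ones with 2.91 ± 1.91 CPM in labelled KO, against 4 ± 2.97 in labelled WT (log2 fold change -0.47, adjusted p = 1).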
